A study of Mus musculus with 10 samples.

Results

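A set of 9 genes that drive a cell from G1 through S phase into mitosis was followed across the series: the E cyclins Ccne1 and Ccne2, the A cyclin Ccna2, the B cyclins Ccnb1 and Ccnb2, the kinase gene Cdk1, the phosphatase gene Cdc25a, and the transcription factor genes E2f1 and Foxm1. The members were named by gene symbol, with earlier results of these data known. All 9 were found among the 6610 symbols of the deposited table, and all 9 were among the 4427 genes tested (those reaching 1 TPM in 2 or more libraries). TPM is a transcript level scaled for transcript length and for the library total, so that levels of different genes can be set side by side. The samples were splenic B lymphocytes of C57BL/6 mice, an inbred strain, in 5 groups of 2 libraries. Phase I cells had been given a pulse of antibodies to IgM and CD40, which engage the antigen receptor and a co-stimulatory receptor, and were collected after 48 h as divided cells (div12) or undivided cells (div0). Phase II cells were div12 cells kept for another 48 h with anti-CD40 at 0.12 µg/ml and then sorted into cells that had divided (div12_48_d) and cells that had not (div12_48_u). Resting cells, not activated, form the group naive. The labels name no allele or transgene in any group and give no mouse age. Per the labels, Phase I replicates were independent pools of 4 to 5 mice, and for Phase II the labels do not say whether replicates came from separate pools, so that p-values may measure only the spread between libraries there.

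Cyclins are regulatory subunits that switch on cyclin-dependent kinases, and their RNA and protein are made and destroyed in a fixed order through the cell cycle. In that textbook scheme E2F factors, released from pocket proteins, induce E cyclins that with CDK2 start DNA replication, cyclin A acts through S phase and G2, and B cyclins with CDK1 start mitosis. CDC25A removes the inhibitory phosphates from these kinases, and FOXM1 raises transcription of G2 and mitotic genes. Resting B cells stay out of the cycle until antigen receptor and CD40 signals bring them in.

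Libraries were first compared in markers of other cells, since these moved with the naive group. Summed TPM of 11 listed of 12 myeloid markers was 86.3 to 304 over the 8 cultured libraries, against 678 and 2204 in the naive libraries, and that of 5 listed of 9 erythroid markers was 28.1 to 54.0 in cultured libraries, against 2714 and 3274 in naive libraries. The myeloid marker C1qa was listed at 0 in all cultured libraries. Summed TPM of 3 listed of 7 NK markers was 3.37 to 6.44 in cultured libraries, against 71.9 and 112 in naive libraries. For 6 listed of 8 T cell markers it was 140 to 176 in Phase I cultured libraries and 377 to 522 in Phase II, against 165 and 180 in naive libraries, and for 10 listed of 14 immediate early genes, which respond to handling, 380 to 2506 in cultured libraries, against 9849 and 6513 in naive libraries. Summed TPM of 6 listed of 8 B cell markers was 14065 to 18988 in cultured libraries, against 21764 and 23013 in naive libraries, and none of the 6 was at 0 in a group. Plasma cell markers summed to 389 to 1193 in cultured libraries, against 2041 and 874 in naive libraries. The part of these differences in the results below was not tested, and in such bulk samples fewer cells with an RNA and less of it per cell cannot be told apart. Phase, time in culture and the number of cells taken for RNA (500000 in Phase II, against 1000000 in Phase I) cannot be told apart either.

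All 9 genes had the same broad order of levels: lowest in naive cells, next in div12_48_u, then div0 and div12_48_d at similar heights, and highest in div12. For 7 genes div12_48_d was above div0 in group mean, and for Ccna2 and Foxm1 it was below. Among neighbours in that order, div12_48_u was called higher than naive for 8 genes, against 15.2% of all genes, and lower than div0 for 6, against 5.20%. By contrast, div12_48_d was called different from neither div0 nor div12 for any of the 9. Of all genes, 11.5% were called higher and 6.96% lower in div12_48_d than in div0, and 11.9% and 4.09% than in div12.

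**Figure D1:**
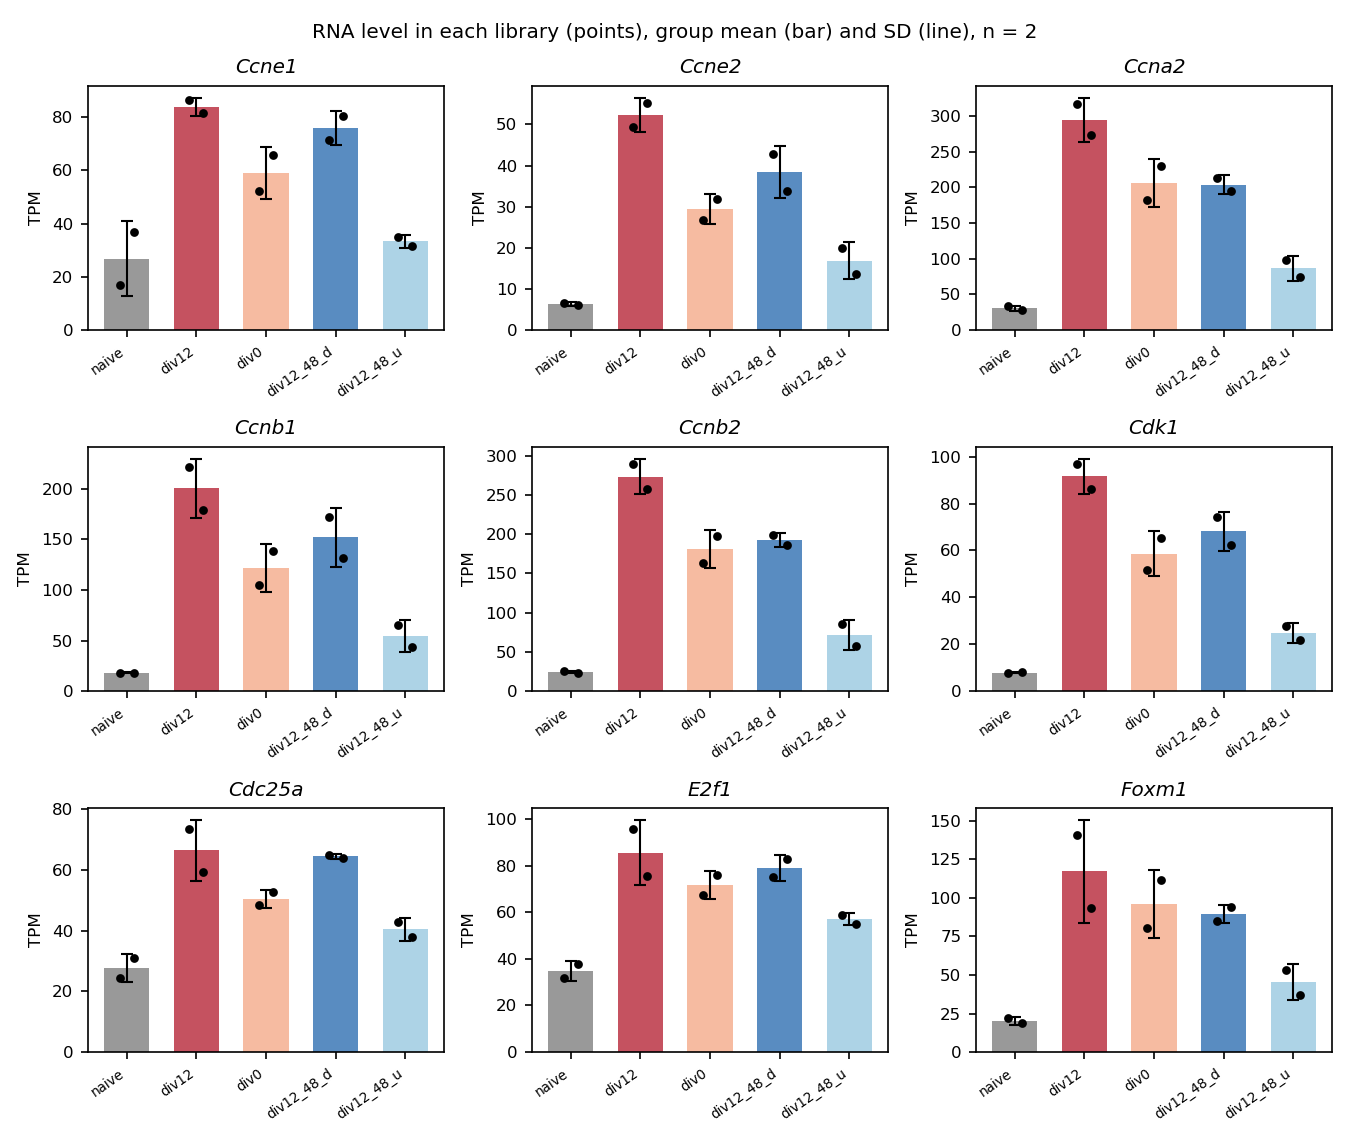
TPM of each gene (vertical axes, from 0) in the 5 groups. Points are the 2 libraries of a group, bars the mean and lines the SD. In every panel naive has the lowest mean and div12 the highest, and div12_48_u lies below div12_48_d.

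The E cyclins, partners of CDK2 at the start of replication, differed in how low they stood in resting cells. Ccne1 had 86.3 and 81.4 TPM in div12 and 52.2 and 65.9 TPM in div0, against 16.8 and 36.8 TPM in naive libraries. In Phase II it had 71.4 and 80.5 TPM in div12_48_d, against 35.1 and 31.6 TPM in div12_48_u. The naive libraries thus stood further apart in ratio than the replicates of any other gene of the set, and the higher of them lay above both div12_48_u libraries. The higher naive value was in replicate 2, which also held the higher myeloid sum. Ccne2 had 49.4 and 55.3 TPM in div12 and 26.8 and 31.9 TPM in div0, against 6.65 and 6.06 TPM in naive libraries. It had 42.8 and 33.9 TPM in div12_48_d, against 20.0 and 13.7 TPM in div12_48_u, and no library of a cultured group reached down to the naive ones. Ccne1 lies on chromosome 7 from 38097984 to 38107490 and Ccne2 on chromosome 4 from 11190433 to 11204779 (GRCm38.p6, as for all coordinates here). Ints8, a protein-coding gene, overlaps Ccne2 on the other strand, and without stated use of strand their reads cannot be separated.

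Ccna2, the cyclin of S phase and G2, was the most abundant of the 9 genes in 9 of 10 libraries. In naive replicate 2 E2f1, Ccne1 and Cdc25a were higher. It had 317 and 273 TPM in div12 and 182 and 229.8 TPM in div0, against 33.2 and 27.8 TPM in naive libraries. In Phase II it had 213 and 194 TPM in div12_48_d, against 98.7 and 74.2 TPM in div12_48_u. The div0 and div12_48_d libraries overlapped, at means of 204 ± 13.0 TPM in div12_48_d and 206 ± 33.8 TPM in div0 (SD, n = 2 each). The gene lies on chromosome 3 from 36564865 to 36573038 and overlaps Exosc9 on the other strand.

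The B cyclins, which bind CDK1 for mitosis, moved together with Cdk1. Ccnb1 had 221 and 179 TPM in div12 and 105 and 139 TPM in div0, against 18.1 and 18.3 TPM in naive libraries. It had 173 and 132 TPM in div12_48_d, against 65.3 and 43.2 TPM in div12_48_u. Ccnb2 had 289.9 and 258 TPM in div12 and 164 and 198 TPM in div0, against 25.5 and 23.2 TPM in naive libraries. For both B cyclins the groups div12, div12_48_u and naive did not overlap each other, which was not particular to them. Of the 9 genes, 9 lay wholly above naive in div12 and 8 in div12_48_u, against 24.4% and 26.2% of all genes. All 9 lay wholly lower in div12_48_u than in div12, against 24.8% of all genes. Ccnb2 in Phase II had 199 and 187 TPM in div12_48_d, against 85.3 and 58.1 TPM in div12_48_u. Cdk1, the kinase itself, had 97.0 and 86.3 TPM in div12 and 51.8 and 65.3 TPM in div0, against 7.66 and 8.02 TPM in naive libraries, and 74.1 and 62.3 TPM in div12_48_d, against 27.7 and 21.9 TPM in div12_48_u. Its mean was 11.7-fold the naive mean in div12, the largest such ratio of the 9 genes. Ccnb1 lies on chromosome 13 from 100778739 to 100786486, Ccnb2 on chromosome 9 from 70407689 to 70421554 and Cdk1 on chromosome 10 from 69335146 to 69352912. The annotation holds a pseudogene named after each B cyclin (Ccnb1-ps and Ccnb2-ps), which may share reads with them.

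The regulators upstream of the cyclins and of CDK1 followed the same order of groups. Cdc25a, the phosphatase gene, had 73.6 and 59.3 TPM in div12 and 48.4 and 52.7 TPM in div0, against 24.5 and 31.0 TPM in naive libraries. It had 65.1 and 63.9 TPM in div12_48_d, against 43.0 and 37.8 TPM in div12_48_u. Over all libraries Cdc25a thus ran from 24.5 to 73.6 TPM, a narrower span than the 7.66 to 97.0 TPM of Cdk1. E2f1, the G1/S activator, had 95.6 and 75.6 TPM in div12 and 67.3 and 75.8 TPM in div0, against 31.8 and 37.7 TPM in naive libraries. It had 75.2 and 83.0 TPM in div12_48_d, against 58.7 and 55.1 TPM in div12_48_u, so that the divided and undivided libraries overlapped in Phase I and not in Phase II. Foxm1, the G2/M activator, had 141 and 93.4 TPM in div12 and 80.3 and 112 TPM in div0, against 22.0 and 18.6 TPM in naive libraries. It had 85.3 and 93.8 TPM in div12_48_d, against 53.5 and 37.0 TPM in div12_48_u. The Foxm1 replicates stood further apart in div12 and div0 than the means of these groups did. Cdc25a lies on chromosome 9 from 109875518 to 109893895, where the miRNA gene Mir7089 overlaps it, E2f1 on chromosome 2 from 154559400 to 154569892 and Foxm1 on chromosome 6 from 128362994 to 128375886, where the protein-coding genes Tex52 and Gm44596 overlap it on the same strand.

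The promoters of the genes that stayed closest to each other, Cdk1 and the B cyclins, are shown with that of Cdc25a, which moved less. Each line gives the 250 bases before the transcription start that the RefSeq promoter entry uses, 5′ to 3′ on the gene's own strand (GRCm38.p6), and capitals mark matches to 3 motifs on either strand.
Cdk1, chr10:69352913-69353162, minus strand: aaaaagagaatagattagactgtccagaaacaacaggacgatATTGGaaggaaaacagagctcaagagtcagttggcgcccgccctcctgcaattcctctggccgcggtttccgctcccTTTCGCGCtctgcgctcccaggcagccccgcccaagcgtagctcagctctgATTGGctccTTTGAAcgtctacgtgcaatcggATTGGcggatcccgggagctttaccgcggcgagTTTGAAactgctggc
Ccnb2, chr9:70421555-70421804, minus strand: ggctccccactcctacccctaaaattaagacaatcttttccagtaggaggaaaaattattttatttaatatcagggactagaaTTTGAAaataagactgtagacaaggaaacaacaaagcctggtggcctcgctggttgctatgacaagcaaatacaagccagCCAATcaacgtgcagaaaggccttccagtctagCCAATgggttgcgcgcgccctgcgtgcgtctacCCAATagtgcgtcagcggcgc
Ccnb1, chr13:100786487-100786736, minus strand: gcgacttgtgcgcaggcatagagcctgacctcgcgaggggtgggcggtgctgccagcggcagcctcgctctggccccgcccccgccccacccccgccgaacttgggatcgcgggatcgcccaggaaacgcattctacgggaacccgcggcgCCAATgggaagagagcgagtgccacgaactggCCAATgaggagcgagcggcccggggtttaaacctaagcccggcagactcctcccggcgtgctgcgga
Cdc25a, chr9:109875329-109875578, plus strand: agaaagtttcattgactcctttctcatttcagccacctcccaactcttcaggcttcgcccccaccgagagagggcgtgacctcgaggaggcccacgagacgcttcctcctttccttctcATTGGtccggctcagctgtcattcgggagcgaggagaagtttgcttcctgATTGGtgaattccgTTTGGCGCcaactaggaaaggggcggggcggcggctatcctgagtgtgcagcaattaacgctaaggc
The motifs searched were the E2F site (TTTCGCGC, TTTGGCGC, TTTCCCGC or TTTGCCGC), the cell cycle homology region or CHR (TTTGAA or TTCGAA), through which MuvB complexes are known to act, and the CCAAT box (CCAAT), bound by NF-Y. Windows of 300 bases, from 250 before to 50 after the start, were available for 6 of the 9 genes, and their 16 matches did not overlap each other. Cdk1 held 1 E2F site, starting 131 bases before the start, 2 CHR matches, at 71 and 15 bases before it, and 3 CCAAT boxes. Ccnb2 held 3 CCAAT boxes, at 87, 54 and 21 bases before the start, and 2 CHR matches, at 167 bases before it and, outside the bases printed, 4 bases after it. Ccnb1 held 2 CCAAT boxes, at 99 and 67 bases before the start, and neither of the other motifs as spelled here. Cdc25a held 1 E2F site, at 67 bases before the start, and 2 CCAAT boxes. The Ccne1 window and the E2f1 window held none of these letters, and the E2f1 window belongs to a start 466 bases inside the annotated gene. Of 32851 such windows of RefSeq genes, 2.26% held an E2F site, 19.2% a CHR, 37.4% a CCAAT box, and 2.31% a CHR with at least 2 CCAAT boxes. A match is a description of the letters, not a bound site.

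Activated cells were then compared with resting cells to ask how far each gene rose on entry into the cycle. All 9 genes rose in div12, in div0 and in div12_48_d, and 8 rose in div12_48_u. These and all following tests are limma on log2(TPM + 1) over all 10 libraries, two-sided, with a gene called where its p, adjusted by Benjamini-Hochberg for the 4427 genes, is under 0.05, and fold changes on this scale understate those of low genes. Over all genes 19.4% were called higher in div12, 15.4% in div0, 21.8% in div12_48_d and 15.2% in div12_48_u. Higher genes made up 28.0% to 35.9% of all calls in these 4 comparisons, 48.8% to 51.7% with median-ratio scaling and 52.5% to 59.9% with quantile normalization. The median change of all genes against naive cells was -0.35 in div12, -0.24 in div0, -0.21 in div12_48_d and -0.11 in div12_48_u, and the changes of the 9 genes can be read relative to it.

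Against resting cells the B cyclins, Cdk1 and Ccna2 had the largest estimates of the set. In div12 the log2 changes were 3.44 ± 0.17 for Ccnb2, 3.39 ± 0.16 for Cdk1, 3.38 ± 0.22 for Ccnb1 and 3.23 ± 0.17 for Ccna2 (estimate ± SE), with limma adjusted p between 3.26e-06 and 8.28e-06. Ccne2 followed at 2.86 ± 0.20 and Foxm1 at 2.45 ± 0.25, and then Ccne1 at 1.71 ± 0.30, E2f1 at 1.27 ± 0.14 and Cdc25a at 1.23 ± 0.15 (adjusted p = 0.00107 for Ccne1). Relative to the median of all genes these last were 2.05, 1.62 and 1.58. The order was near the same in div0, where Ccnb2 rose by 2.84 ± 0.17 and Cdc25a by 0.85 ± 0.15 (adjusted p = 0.00197). Cells sorted as undivided at 48 h thus already held 7.47-fold the naive mean TPM of Cdk1 and 6.69-fold that of Ccnb1. The div0 calls of Ccne1 (adjusted p = 0.00924) and E2f1 were the less stable: that of Ccne1 was lost without div0 replicate 2 (adjusted p = 0.0657) and with only div0 and naive libraries (adjusted p = 0.0792), and that of E2f1 when its most abundant transcript alone was used (adjusted p = 0.0616).

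Phase II cells that had not divided kept levels above resting cells for most of the set. In div12_48_u against naive, Cdk1 was higher by 1.54 ± 0.16, Ccnb1 by 1.50 ± 0.22, Ccnb2 by 1.50 ± 0.17 and Ccna2 by 1.46 ± 0.17 (limma adjusted p from 2.14e-04 to 0.00111). Ccne2 was higher by 1.26 ± 0.20, Foxm1 by 1.10 ± 0.25, E2f1 by 0.70 ± 0.14 and Cdc25a by 0.53 ± 0.15. Ccne1 was not called, at 0.40 ± 0.30 (adjusted p = 0.304), and its libraries overlapped those of naive cells. That value rests on the naive libraries: without naive replicate 2 it was 0.94 and called (adjusted p = 0.00406), and without replicate 1 it was -0.14 (adjusted p = 0.526). The Cdc25a call was lost without naive replicate 1 (adjusted p = 0.101) or div12_48_u replicate 1 (adjusted p = 0.108) and with the compared groups alone (adjusted p = 0.105), the Foxm1 call without div12_48_u replicate 1 (adjusted p = 0.0571), and the E2f1 call with its most abundant transcript (adjusted p = 0.0798).

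The series' central comparison set divided against undivided cells in each phase. In Phase II all 9 genes were higher in div12_48_d than in div12_48_u, against 12.2% of all genes called higher there, and both divided libraries lay above both undivided ones, as for 28.6% of all genes. Higher genes made up 47.6% of all calls in this comparison, and 57.6% with median-ratio scaling. Ccnb1 rose by 1.49 ± 0.22, Ccnb2 by 1.44 ± 0.17, Cdk1 by 1.43 ± 0.16 and Ccna2 by 1.24 ± 0.17 (limma adjusted p from 0.00111 to 0.00341). The E cyclins rose by 1.16 ± 0.30 for Ccne1 (adjusted p = 0.0234) and 1.15 ± 0.20 for Ccne2 (adjusted p = 0.00531). Foxm1 rose by 0.99 ± 0.25, Cdc25a by 0.66 ± 0.15 and E2f1 by 0.47 ± 0.14 (adjusted p = 0.0428 for E2f1). In ratios of mean TPM these were 2.80-fold for Ccnb1, 2.28-fold for each E cyclin and 1.39-fold for E2f1. The count of 9 depended on single libraries: 4 genes were called without div12_48_d replicate 1, 5 without div12_48_d replicate 2 and 5 without div12_48_u replicate 2. Ccna2, Ccnb1, Ccnb2 and Cdk1 kept their calls in every one of these fits, whereas E2f1 and Ccne1 lost theirs without any of the 4 Phase II libraries (adjusted p from 0.116 to 0.170 for E2f1 and from 0.0830 to 0.104 for Ccne1), Cdc25a and Foxm1 lost theirs without 3 of the 4, and Ccne2 without div12_48_d replicate 1 (adjusted p = 0.0511). Of 21 alternative fits, 11 lost the E2f1 call, among them that with its most abundant transcript (limma adjusted p = 0.395). Others were no filter on low values (adjusted p = 0.063), no trend (adjusted p = 0.0574), a replicate block and leaving out either div0 library. With only the compared groups, E2f1 (adjusted p = 0.0511) and Ccne2 (adjusted p = 0.0513) were not called. Summed TPM of 6 plasma cell markers was 972 and 1193 in div12_48_d, against 458 and 480 in div12_48_u, that of the T cell markers 494 and 522, against 377 and 431, and that of the immediate early genes 1057 and 1516, against 2506 and 2357. Their part in the division difference was not tested.

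In Phase I the divided cells had the higher mean for all 9 genes, and only Ccne2 (0.82 ± 0.20, adjusted p = 0.0423) and Cdk1 (0.64 ± 0.16, adjusted p = 0.0471) were called higher in div12 than in div0 by limma, against 3.68% of all genes. Higher genes made up 42.0% of all calls, 63.8% with median-ratio scaling and 52.4% with quantile normalization. The other values were 0.72 ± 0.22 for Ccnb1, 0.60 ± 0.17 for Ccnb2, 0.52 ± 0.17 for Ccna2, 0.51 ± 0.30 for Ccne1 and 0.38 ± 0.15 for Cdc25a, with adjusted p from 0.0679 to 0.309. For these 5 genes and both called ones the div12 libraries lay above the div0 libraries, as they did for 25.6% of all genes, so this separation adds no support to the uncalled ones. Foxm1 at 0.27 and E2f1 at 0.25 overlapped between the groups, with 95% intervals of -0.29 to 0.84 and -0.07 to 0.57. Of 21 alternative fits, 10 lost the Ccne2 call and 15 the Cdk1 call. Both were lost without any library of div12 or div0 (log2 changes from 0.70 to 0.94 for Ccne2 and from 0.48 to 0.81 for Cdk1). The Cdk1 call was also lost on leaving out any library of the other groups. Both were lost without the filter on low values (limma adjusted p = 0.0764 and 0.0777). A replicate block, a fit with no trend and the most abundant transcript alone also lost both. Median-ratio scaling instead called 6 genes, adding Ccna2, Ccnb1, Ccnb2 and Cdc25a. The immediate early sum was 380 and 491 TPM in div12, against 1149 and 757 TPM in div0, and its part was not tested.

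**Figure D2:**
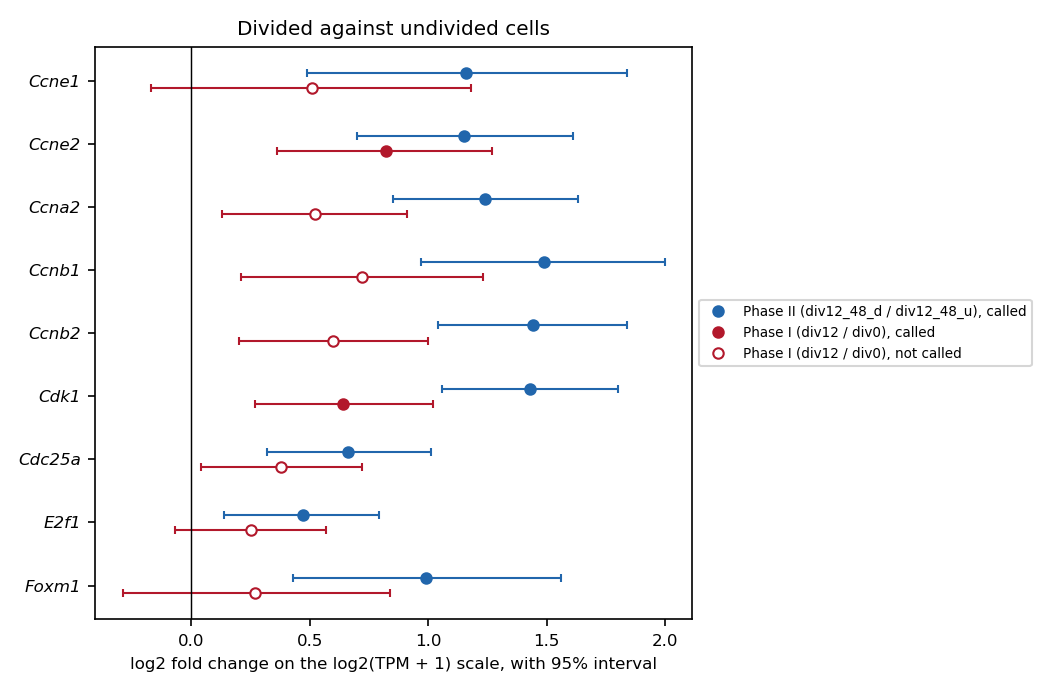
Log2 fold change (horizontal axis) of each gene between divided and undivided cells, with 95% intervals from limma, in Phase II (blue) and Phase I (red). Filled points were called and open points were not. All 9 Phase II estimates lie to the right of the Phase I estimate of the same gene.

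The estimated division difference was larger in Phase II than in Phase I for each gene, but the test of that difference called none of the 9 and none of the 4427 genes (0 by limma, with 438 genes at an unadjusted p under 0.05, 4 of them among the 9). The differences of the log2 changes ran from 0.22 for E2f1 (95% interval -0.24 to 0.67) to 0.84 for Ccnb2 (0.28 to 1.41). Those of Cdk1 (0.79, from 0.26 to 1.31), Ccnb1 (0.77, from 0.04 to 1.49) and Ccna2 (0.72, from 0.17 to 1.27) also had intervals above 0, with adjusted p of 0.257, 0.456 and 0.329. That of Ccne2 was 0.34 (from -0.30 to 0.98). These intervals are per gene, with no correction for the number of genes.

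Phase II cells were also compared with the div12 cells they came from. In div12_48_u all 9 genes were lower than in div12, against 13.6% of all genes called lower, and both div12_48_u libraries lay below both div12 libraries, as for 24.8% of all genes. Higher genes made up 67.0% of all calls, 46.2% with median-ratio scaling and 49.9% with quantile normalization, and the median change of all genes was 0.16. The log2 changes were -1.94 ± 0.17 for Ccnb2, -1.89 ± 0.22 for Ccnb1, -1.85 ± 0.16 for Cdk1, -1.77 ± 0.17 for Ccna2 and -1.60 ± 0.20 for Ccne2 (limma adjusted p from 1.97e-04 to 6.07e-04). They were -1.35 ± 0.25 for Foxm1, -1.31 ± 0.30 for Ccne1, -0.70 ± 0.15 for Cdc25a and -0.57 ± 0.14 for E2f1, again the smallest. The E2f1 call (adjusted p = 0.0125) was lost without div12 replicate 1 (adjusted p = 0.0730), without div12_48_u replicate 2 (adjusted p = 0.0655) and with the most abundant transcript (adjusted p = 0.701), and that of Ccne1 without div12_48_u replicate 2 (adjusted p = 0.0504).

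For cells that divided in Phase II the estimates were smaller. None of the 9 genes was called in div12_48_d against div12 by limma (3 at an unadjusted p under 0.05, as were 30.8% of all genes), against 4.09% of all genes called lower and 11.9% higher. All estimates were below 0, from -0.53 for Ccna2 (95% interval -0.92 to -0.14) to -0.03 for Cdc25a (-0.38 to 0.31). For 6 genes both div12_48_d libraries lay below both div12 libraries, as they did for 22.6% of all genes. With median-ratio scaling Ccna2, Ccnb2 and Cdk1 were called lower, at -0.65, -0.62 and -0.55 (adjusted p from 0.0263 to 0.0355), and higher genes made up 50.8% of all calls in place of 74.4% (51.2% with quantile normalization). Ccnb2 was also called without either div12_48_u replicate (adjusted p = 0.0372 and 0.0369). Between the undivided populations, in div12_48_u against div0, 6 of the 9 genes were called lower, against 5.20% of all genes (66.2% of all calls were higher, 47.3% with median-ratio scaling and 48.9% with quantile normalization). The changes were -1.34 ± 0.17 for Ccnb2, -1.25 ± 0.17 for Ccna2, -1.21 ± 0.16 for Cdk1, -1.17 ± 0.22 for Ccnb1, -1.07 ± 0.25 for Foxm1 and -0.79 ± 0.20 for Ccne2, while Ccne1 at -0.80 ± 0.30 was not called (adjusted p = 0.109). That Ccne1 value was called without naive replicate 1 (adjusted p = 0.0102), without naive replicate 2 (adjusted p = 0.0105), without the naive group (adjusted p = 0.0101) and with only these groups (adjusted p = 0.0364). Only 3 of these 9 were called without div0 replicate 2 or without div12_48_u replicate 2, namely Ccna2, Ccnb2 and Cdk1. In div12_48_d against div0 no gene of the 9 was called (1 at an unadjusted p under 0.05, as were 31.4% of all genes), against 11.5% of all genes called higher and 6.96% lower, with estimates from -0.08 for Foxm1 to 0.37 for Ccne2. Higher genes made up 62.3% of all calls there, and 49.0% with quantile normalization. The comparisons with div12 share the div12 libraries, and those with div0 share the div0 libraries.

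**Figure D3:**
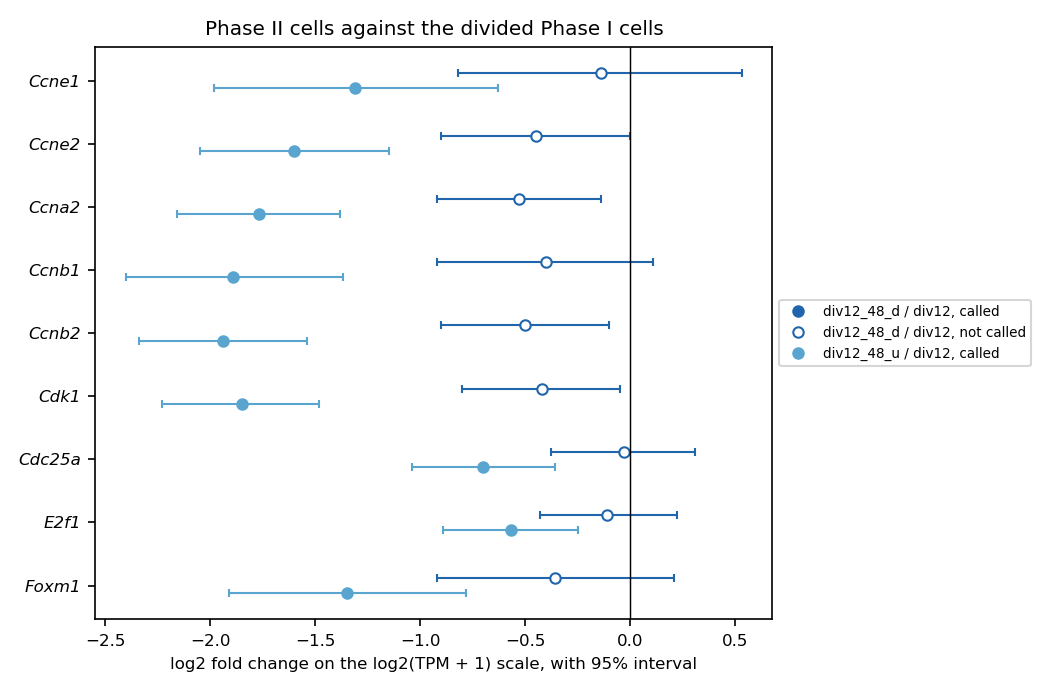
Log2 fold change (horizontal axis) of each gene in the Phase II groups against div12, with 95% intervals from limma. Filled points were called. All 9 div12_48_u estimates lie between -1.94 and -0.57, and the div12_48_d estimates between -0.53 and -0.03.

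The make-up of the cyclin RNA was steadier than its amount. The summed TPM of the 5 cyclins was 963 and 846 in div12 and 529.9 and 665 in div0, against 100.2 and 112 in naive libraries, and 699 and 627 in div12_48_d, against 304 and 221 in div12_48_u. B cyclins made up 53.1% and 51.6% of it in div12 and 50.7% in each div0 library, against 43.4% and 37.0% in naive libraries. They made up 53.2% and 50.7% in div12_48_d, against 49.5% and 45.9% in div12_48_u. E cyclins made up 14.1% and 16.2% in div12 and 14.9% and 14.7% in div0, against 23.4% and 38.2% in naive libraries, and 16.3% and 18.2% in div12_48_d, against 18.1% and 20.5% in div12_48_u. The E share was thus higher in both naive libraries than in any cultured one, and the Phase II groups overlapped in it. The summed B cyclins were 4.63 to 5.69 times the Cdk1 TPM in all 10 libraries. Foxm1 stood at 1.13 to 1.48 times the TPM of E2f1 in the div12, div0 and div12_48_d libraries and at 0.910 and 0.672 times in div12_48_u, against 0.692 and 0.493 times in naive libraries.

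**Figure D4:**
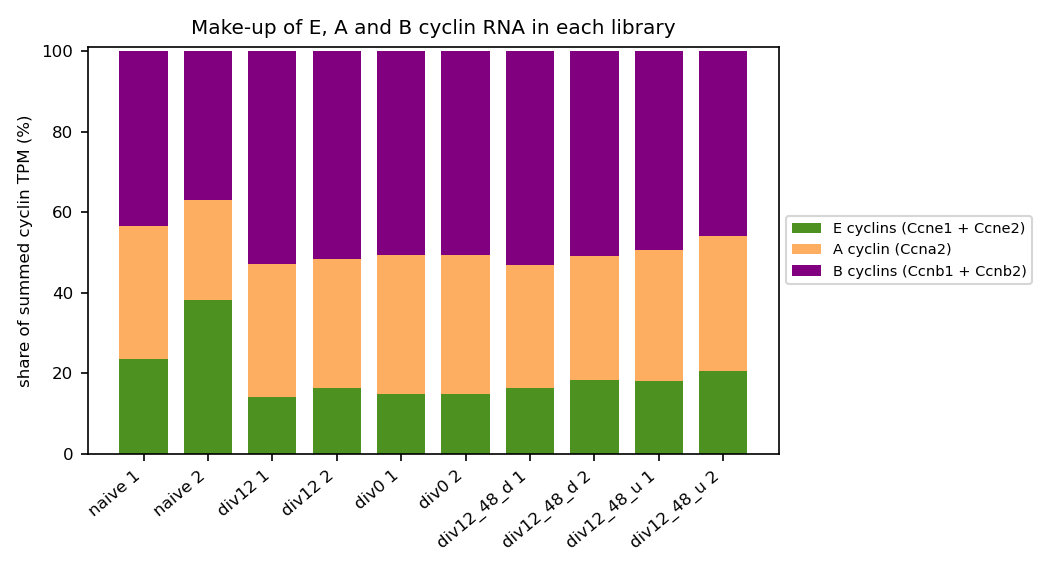
Share of E, A and B cyclins (vertical axis, percent) in the summed TPM of the 5 cyclin genes, by library (horizontal axis). Naive replicate 2 has the largest E share, 38.2%, and every cultured library has between 14.1% and 20.5%.

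Transcripts of 2 genes were listed separately. E2f1 had 2 transcripts, and the less abundant of them took 22.0% of the gene's TPM in div0 replicate 1 and 60.7% in div0 replicate 2, and 38.3% and 56.3% in div12. In the other 6 libraries it took 29.7% to 39.2%. In div0 and div12 the split thus differed between replicates, while the sum over both transcripts was 67.3 and 75.8 TPM in div0. Ccne2 had 3 transcripts, none of which held more than 61.5% of its TPM in any library. With 50-base single-end reads the assignment among transcripts of a gene is uncertain, and results here use the sum.

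Likeness among the genes was measured as the root-mean-square difference of log2(TPM + 1) over the 10 libraries after centring each gene on its own mean. Ccnb1 and Cdk1 differed by 0.08, Ccnb2 and Cdk1 by 0.09, Ccna2 and Ccnb2 by 0.10, and Cdc25a and E2f1 by 0.10. The pair furthest apart was Ccnb2 and Cdc25a at 0.82, and Ccne1 and Ccne2 differed by 0.49. The E cyclins thus stood further from each other than the B cyclins did, at 0.11. Their distance leans on naive replicate 2, where Ccne1 stood at 6.08 times the TPM of Ccne2. In all other libraries that ratio was 1.47 to 2.53. The likeness values of Ccne1 include this library, and were not computed without it. Among 3402 named genes that reach 10 TPM in a group, the closest to Ccna2 was Bub1b (0.06), a spindle checkpoint kinase gene, the closest non-member to Ccnb1 was Ttk (0.10), a checkpoint kinase gene, and the closest non-members to Ccnb2 were Tpx2 and Bub1 (0.09 each), which act at the spindle and the kinetochore. Foxm1 was closest to Cit (0.12), Prc1 (0.13) and Incenp (0.14), all genes of cytokinesis or the central spindle. The closest non-members to Cdc25a were Ap1s1 (0.10) and Pgam1 (0.11), and those to E2f1 were Wdr90 and Nsd2 (0.11 each). Ccne2 was closest to Cip2a (0.12), Ncapg2 (0.15), a condensin subunit gene, and Dtl (0.16), a ubiquitin ligase adaptor gene of S phase, whereas Ccne1 had none closer than Skp2 and Rfc5 (0.24 each). Skp2 encodes the ubiquitin ligase subunit that targets p27, and Rfc5 a clamp loader subunit. The median difference over the genes compared was 0.60 for both Cdc25a and E2f1, 0.83 for Ccne1 and 1.37 for Ccnb2. The measure favours genes with a like size of change, and libraries of a group share their condition.

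Other genes of the pathway were read from lists by function. Their counts stand beside 12.2% of all genes called higher in div12_48_d against div12_48_u and 3.68% in div12 against div0, and no list was tested as a set or against another. Of 13 tested replication genes known as E2F targets, 11 rose in div12_48_d against div12_48_u, with a median log2 change of 1.03 against -0.08 over all genes, and 9 of 13 rose in div12 against div0, with a median of 0.62 against -0.07. In Phase II Gins2 (1.39 ± 0.12) and Mcm5 (1.28 ± 0.13), which encode parts of the replicative helicase, and Rrm2 (1.34 ± 0.17), a ribonucleotide reductase subunit gene, changed most of these by limma, and Tyms (-0.06 ± 0.10) and Cdt1 (0.14 ± 0.22) were not called. Of 8 tested mitotic genes known as FOXM1 targets, all 8 rose in Phase II (median 1.30), with Birc5 at 1.47 ± 0.15, Nek2 at 1.38 ± 0.25 and Mki67 at 1.34 ± 0.21, and only Birc5 rose in Phase I (0.67 ± 0.15, median 0.52). All 4 tested kinase and phosphatase genes of CDK1 control rose in Phase II: Plk1 (1.32 ± 0.31), Chek1 (1.24 ± 0.21), Aurka (1.20 ± 0.18) and Cdc25b (0.81 ± 0.19). In Phase I only Chek1 of these rose (0.87 ± 0.21). Cdc25b fell in div0 against naive (-0.89 ± 0.19), where Plk1 (2.73 ± 0.31), Chek1 and Aurka rose. Over all 4427 genes, 1751 were called lower and 680 higher in div0 against naive, with a median change of -0.24.

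Partners and regulators of the cyclins and E2F factors were read the same way. Of 7 tested CDK and cyclin partner genes, 3 rose in div12_48_d against div12_48_u: Ccnf (1.12 ± 0.22), an F-box cyclin gene, Cdk2 (0.45 ± 0.12), the E cyclin kinase, and Cdk4 (0.42 ± 0.08). Ccnd2 (0.07 ± 0.14) and Ccnd3 (0.05 ± 0.14) were not called. In Phase I, Cdk2 (0.50 ± 0.12) and Cdk4 (0.42 ± 0.08) rose. Cdk2 stood at 202 ± 5.83 TPM in div12_48_d and 148 ± 13.4 TPM in div12_48_u (SD, n = 2 each), so that the kinase of the E cyclins was present at higher RNA levels than Ccne1 and Ccne2 in both groups. Of 5 tested E2F, DP and pocket protein genes 2 rose in Phase II, Tfdp1 (0.83 ± 0.12), the E2F dimer partner gene, and Rbl1 (0.46 ± 0.15), which encodes p107. Rb1 (-0.33 ± 0.13) and Rbl2 (-0.36 ± 0.11) were not called there, and both rose in div12_48_u against div12 (0.86 ± 0.13 and 0.58 ± 0.11), where Tfdp1 and Rbl1 fell. Over all 4427 genes, 1225 were called higher and 603 lower in div12_48_u against div12, with a median change of 0.16. Of 5 tested genes of cyclin destruction 1 rose in Phase II, Skp2 (0.78 ± 0.24), a share near that of all genes. Fzr1 (0.20 ± 0.21) and Anapc2 (-0.10 ± 0.10), of the anaphase-promoting complex, were not called. The only tested MuvB gene, Rbbp4, was not called between divided and undivided cells in either phase.

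Among 5 tested CDK inhibitor genes, 3 rose with the cyclins in div12_48_d against div12_48_u: Cdkn2a (3.23 ± 0.26), Cdkn2b (1.81 ± 0.25) and Cdkn1a (1.67 ± 0.38). The INK4 proteins of the Cdkn2 genes block CDK4 and CDK6, and the Cdkn1a product p21 blocks CDK2. Cdkn2a had 51.2 ± 8.16 TPM in div12_48_d and 4.54 ± 0.522 TPM in div12_48_u (SD, n = 2 each), and its difference between phases was 2.04 ± 0.37 (limma adjusted p = 0.0769, not called). Cdkn1b, which encodes p27, an inhibitor of cyclin E with CDK2, was not called in that comparison (-0.27 ± 0.10). It rose in div12_48_u against div12 (0.55 ± 0.10), the opposite direction to the E cyclins, where 1225 of 4427 genes were called higher. In Phase I, 1 of the 5 inhibitor genes was called higher in div12 than in div0 and 4 were not called. The lists are partial: 13 of 17 replication genes, 8 of 12 mitotic genes, 4 of 11 genes of CDK1 control, 7 of 12 partners, 5 of 12 E2F, DP and pocket protein genes, 5 of 7 inhibitors, 5 of 20 destruction genes and 1 of 6 MuvB genes were tested.

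**Figure D5:**
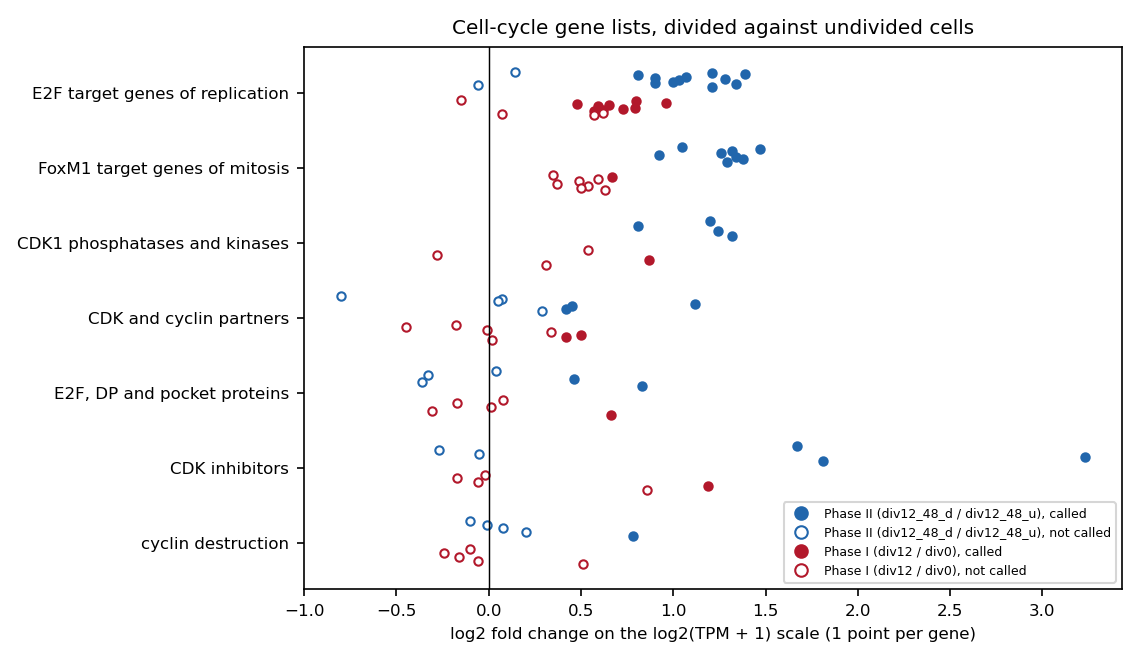
Log2 fold change (horizontal axis) of each tested gene of 7 functional lists (rows) between divided and undivided cells, in Phase II (blue) and Phase I (red). Filled points were called. All 8 FOXM1 targets are filled in Phase II and 1 in Phase I, and the right-most point is Cdkn2a at 3.23.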

How the data were processed

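RNA of 10 libraries was measured by sequencing ribosome-depleted total RNA (100 ng) as 50-base single-end reads, per the labels' protocols. The deposited table gives TPM per RefSeq transcript, made by the authors. Tools named in the submitters' processing notes are DESeq2, featureCounts, HISAT2, HTSeq and Salmon, with the build mm10. Which of them made these values, with what version, and whether strand was used is not stated there. TPM carry no depth, so depth is unknown and no counting interval is given, and each value is relative to the library's total.

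From these, 13065 transcript rows were summed into 6610 gene symbols (63 rows without a usable symbol held 0.204% to 0.379% of TPM per library). Genes reaching 1 TPM in 2 or more libraries entered the fit, made on log2(TPM + 1) by limma 3.58.1 (R 4.3.3), with group as the only term, a mean-variance trend and 5 residual degrees of freedom. Benjamini-Hochberg adjustment ran over all 4427 genes of a comparison, and 11 comparisons were made. Tables, promoters and plots were made with matplotlib 3.10.9, numpy 2.4.6 and pandas 2.3.3 under Python 3.11.15. The script for the fits was tested on simulated data. The 9 genes and all lists were chosen with earlier results of these data known. Of each list the text names up to 3 called genes with the largest change and up to 2 uncalled genes with the highest mean, and names Cdc25b, Rbl2 and others in counts of 5 or fewer after their values were seen. Likeness used the 3 nearest of 3402 genes reaching 10 TPM in their highest group. Alternatives were pseudocounts of 0.1 and 5, no filter or one at 5 TPM, median-ratio scaling, quantile normalization, fewer groups in the fit, a block for the replicate number, a fit with no trend, the most abundant transcript, and leaving out each library.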

Additional observations from a re-analysis of the deposited data

How the results depend on the processing

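Of 2043 repeats of the tests of the 9 genes under the alternatives, 1937 kept direction and call, 73 lost the call, 24 gained it and 9 changed sign. In div12 against div0 the count of called genes of the set, 2 in the report, was 0 without a filter, without the trend and with the most abundant transcript, 1 with only these groups, and 6 with median-ratio scaling. In div12_48_d against div12 it was 3 in place of 0 with median-ratio scaling, and in div12_48_d against div0 it was 1 in place of 0 with only these groups (Cdc25a, adjusted p = 0.0445). Leaving out each library gave 8 to 9 genes for div0, 9 for div12, 9 for div12_48_d and 6 to 9 for div12_48_u against naive. It gave 0 to 2 for div12 against div0, 4 to 9 for div12_48_d against div12_48_u, 7 to 9 for div12_48_u against div12, 0 to 1 for div12_48_d against div12, 3 to 7 for div12_48_u against div0, and 0 for div12_48_d against div0 and for the difference between phases. A library left out leaves its group with 1 library, assumed to vary like the others.

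Changes of sign were all in genes without a call. With the most abundant transcript E2f1 in div12_48_d against div12 was at 0.22. Leaving out libraries, the estimates ran from -0.27 to 0.06 for E2f1 and from -0.19 to 0.12 for Cdc25a in that comparison, from -0.14 to 0.94 for Ccne1 in div12_48_u against naive, and from -0.02 to 0.57 for Foxm1 in div12 against div0. In div12_48_d against div0 they ran from -0.17 to 0.16 for Ccna2, from -0.04 to 0.23 for Ccnb2 and from -0.32 to 0.15 for Foxm1. The cause was not tested.

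Deviations of libraries with the same replicate number correlated from -0.24 to 0.20 over 10 pairs of groups. With 2 libraries per group this cannot decide whether replicate numbers pair the samples. With the replicate number as a block, 0 of the 9 genes in place of 2 were called in div12 against div0 and 8 in place of 9 in div12_48_d against div12_48_u (E2f1, adjusted p = 0.0624), and the other counts were equal. Over all genes the calls ranged from 1573 to 2603 for div0, 2372 to 3220 for div12, 1082 to 2031 for div12_48_u and 2086 to 3000 for div12_48_d against naive (2431, 2962, 1880 and 2762 as reported). They ranged from 0 to 607 for div12 against div0 (388), 347 to 1432 for div12_48_d against div12_48_u (1134), 1213 to 2175 for div12_48_u against div12 (1828), 227 to 962 for div12_48_d against div12 (706), 86 to 981 for div12_48_u against div0 (680), 300 to 1036 for div12_48_d against div0 (818) and 0 to 23 for the difference between phases (0).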
